A study of Mus musculus with 21 samples.

Results

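The EGF receptor family and its ligands were followed across mouse lungs and lung tumours in 7 groups of 3 RNA-seq libraries. The 8 genes were taken by symbol from a count table of 38924 symbols. They comprised 5 ligands (Ereg, Areg, Hbegf, Tgfa and Btc) and 3 receptors (Egfr, Erbb2 and Erbb3). All 8 passed the filter on low counts and were among the 15770 genes tested. All mice were female A/J, a strain prone to lung tumours, sampled 22 weeks after treatment. NNK, a nicotine-derived tobacco carcinogen, was injected intraperitoneally 1 time at 100 mg/kg. LPS, a bacterial cell wall product that inflames the airways, was instilled into the nose each week at 5 µg per mouse, from 1 week after NNK. The diet agents silibinin (Sil) and indole-3-carbinol (I3C) were fed at 20 µmol/g each. The groups were NNK_LPS_Sil_I3C, NNK_LPS_I3C and NNK_LPS_Sil (NNK, LPS and the named agents), NNK_LPS (NNK and LPS), NNK alone, LPS alone, and Control (vehicle). Tumours were dissected and pooled from 3 mice per group for the 5 NNK groups, whereas LPS and Control RNA is from normal lung. Tumour tissue and NNK exposure therefore cannot be told apart. The labels do not say if replicate libraries stem from different mice, so p-values measure the spread between libraries, which may be technical.

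EGF family ligands are made as membrane-bound precursors and released by cutting at the cell surface, chiefly by the protease ADAM17. They bind EGFR or ERBB4, and HER2, encoded by Erbb2, has no known ligand of its own and signals as a partner of the other receptors. ERBB3 binds neuregulins, has little kinase activity and passes the signal on to PI3 kinase. In lung the family drives growth and repair of the epithelium.

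Ereg, Areg and Btc lie in 1 ligand cluster on chromosome 5 (GRCm38). Ereg spans 91074622 to 91093646 on the plus strand, Areg 91139599 to 91148432 on the plus strand, and Btc 91357261 to 91402994 on the minus strand. The gap between Ereg and Areg is 46.0 kb, and that between Areg and Btc is 209 kb. Tgfa lies on chromosome 6, Hbegf on 18, Egfr and Erbb2 on 11, and Erbb3 on 10. The sequences from 250 bases before to 50 after the annotated start are shown for Areg, the most variable ligand with a matched promoter, for its cluster neighbour Btc, which moved otherwise, and for Tgfa, which was higher in tumours. They come from RefSeq (GRCm38.p6), where 5 of the 8 genes were matched. They lie at chr5:91139349-91139648 (plus strand), chr5:91402945-91403244 (minus strand) and chr6:86194972-86195271 (plus strand). Capitals mark matches, on either strand, to the cAMP response element TGACGTCA, the AP-1 motif TGANTCA, the TATA motif TATAAA and the SP1 motif GGGCGG.
Areg: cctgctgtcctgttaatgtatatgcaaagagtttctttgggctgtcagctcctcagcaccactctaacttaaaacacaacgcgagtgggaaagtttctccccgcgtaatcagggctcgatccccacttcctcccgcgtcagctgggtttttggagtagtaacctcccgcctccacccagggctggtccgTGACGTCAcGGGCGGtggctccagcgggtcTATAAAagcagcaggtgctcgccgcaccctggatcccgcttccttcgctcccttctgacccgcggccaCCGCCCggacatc
Btc: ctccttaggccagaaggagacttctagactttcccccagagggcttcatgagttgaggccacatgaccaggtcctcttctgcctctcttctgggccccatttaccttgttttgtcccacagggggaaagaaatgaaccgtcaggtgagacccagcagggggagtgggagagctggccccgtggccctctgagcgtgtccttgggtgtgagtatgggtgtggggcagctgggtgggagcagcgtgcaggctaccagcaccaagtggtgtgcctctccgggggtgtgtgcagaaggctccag
Tgfa: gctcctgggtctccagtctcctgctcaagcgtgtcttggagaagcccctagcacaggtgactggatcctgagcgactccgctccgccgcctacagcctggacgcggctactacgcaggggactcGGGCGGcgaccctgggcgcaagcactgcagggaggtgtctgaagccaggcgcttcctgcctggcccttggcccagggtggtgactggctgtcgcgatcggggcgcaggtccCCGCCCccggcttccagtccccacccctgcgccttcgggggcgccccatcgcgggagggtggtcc
The Areg sequence held the cAMP response element at -61 to -54 from the start, a TATA match at -31 to -26, and 2 SP1 matches. The cAMP response element letters occur in 1.88% of 27025 promoters of this length, TATA in 14.2%, SP1 in 35.9% and AP-1 in 7.93%. The Tgfa sequence held 2 SP1 matches, and the Btc sequence held none of the 4 motifs. No AP-1 match was found in the 3 windows. A match is a description of letters and does not show binding.

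Total counts were 13.3 to 25.3 M per library. The 10 alveolar type 2 markers, which include the surfactant genes that define these lung cells, had counts in every library, with summed levels of 20736 to 71658 CPM (counts scaled to a common library size). The libraries fell into 3 sets by mt-Atp8 counts divided by mt-Atp6 counts, a split that the labels do not mention. Set A (ratio 0.0206 to 0.0236) held NNK, Control, LPS 1 and LPS 2. Set B (0.0782 to 0.0876) held NNK_LPS, NNK_LPS_Sil, LPS 3 and NNK_LPS_I3C 1, and set C (0.117 to 0.135) held the other 5 libraries. NNK minus Control and NNK_LPS_Sil minus NNK_LPS thus lay within 1 set, while NNK_LPS shared no set with NNK, Control or NNK_LPS_Sil_I3C. In bulk tissue, fewer cells of a type and less RNA per cell cannot be told apart.

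**Figure D1:**
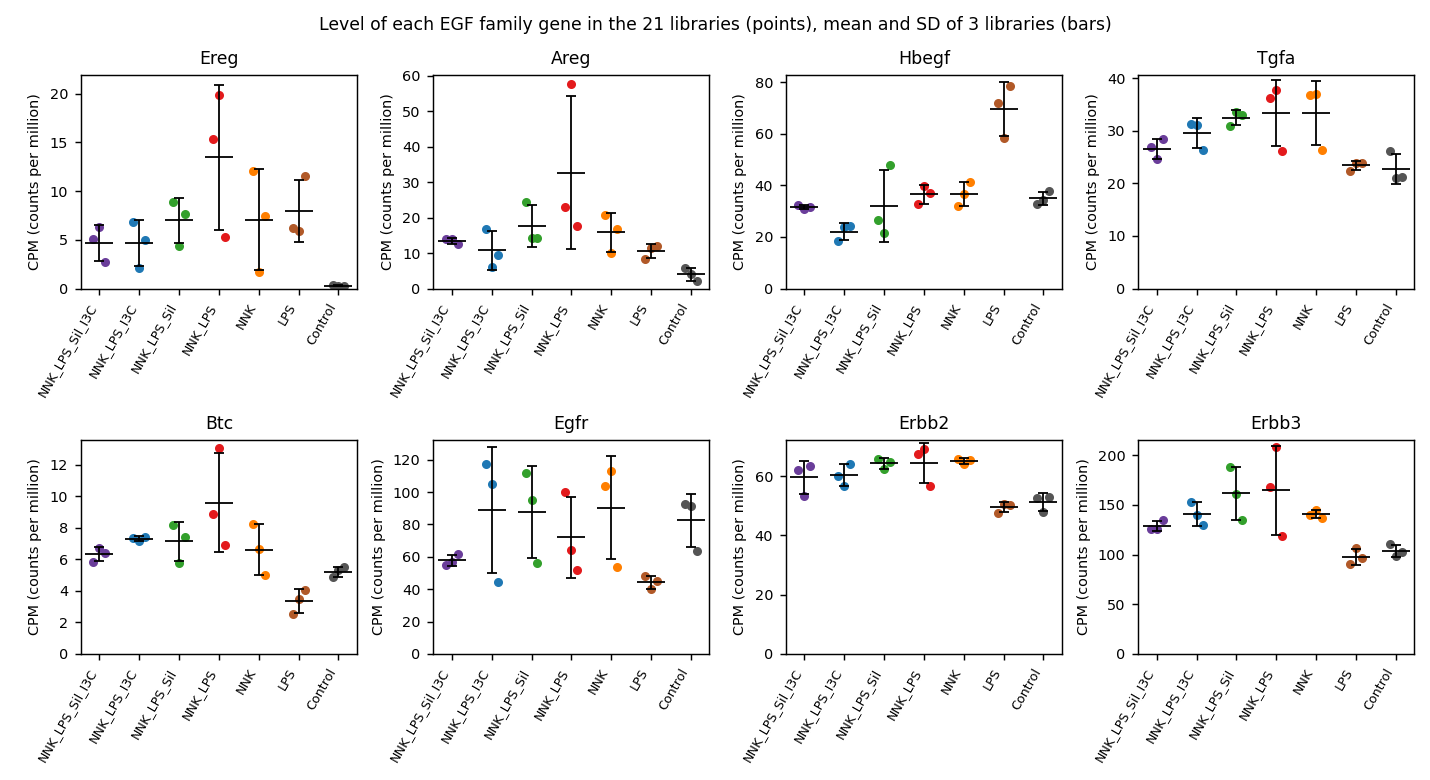
Level of each gene in CPM (y axes, each from 0) in the 21 libraries, by group along the x axes; points are libraries, and bars are the mean and SD of 3 libraries. Ereg sits below 0.4 CPM in the 3 Control libraries and above 1.7 CPM in all others, and Hbegf is highest in the 3 LPS libraries.

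Epiregulin, encoded by Ereg, is a ligand of EGFR and ERBB4 that is low in resting tissue. It stood at 15.4, 19.8 and 5.29 CPM in NNK_LPS tumours, at 12.0, 1.71 and 7.43 CPM in NNK tumours and at 6.24, 5.94 and 11.6 CPM in LPS lung, against 0.379, 0.255 and 0.258 CPM in Control lung. Every library of the other groups lay above every Control library, and all groups other than Control overlapped their neighbours in the order of means. Over 3 libraries, Control held 13 counts of Ereg in all. The log2 fold change was 5.48 ± 0.82 in NNK_LPS tumours, 4.55 ± 0.83 in NNK tumours and 4.72 ± 0.83 in LPS lung, each against Control (SE, 3 libraries per group; edgeR quasi-likelihood adjusted p = 0.000402, 0.00564 and 0.000198). Ereg in NNK tumours did not differ detectably from LPS lung (-0.17 ± 0.58, edgeR adjusted p = 0.837).

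Amphiregulin, encoded by Areg, is an EGFR ligand made by epithelium and by several leukocytes. It had 22.9, 57.5 and 17.6 CPM in NNK_LPS tumours, 20.8, 9.91 and 16.9 CPM in NNK tumours and 8.39, 11.3 and 12.1 CPM in LPS lung, against 5.69, 4.21 and 2.13 CPM in Control lung. The library NNK_LPS 2 was far above the rest, and no library of these 3 groups fell within the Control range. Areg rose by 3.03 ± 0.49 in NNK_LPS tumours, 1.99 ± 0.48 in NNK tumours and 1.41 ± 0.49 in LPS lung on the log2 scale (edgeR adjusted p = 0.000637, 0.0164 and 0.0231). It was also higher in NNK_LPS tumours than in LPS lung, by 1.62 ± 0.45 (adjusted p = 0.00927), but not without NNK_LPS 2 (0.95, adjusted p = 0.0878).

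Hbegf encodes heparin-binding EGF-like growth factor, a ligand of EGFR and ERBB4 that macrophages and epithelium make after injury. Its levels were 72.0, 58.3 and 78.4 CPM in LPS lung, against 32.9, 34.3 and 37.8 CPM in Control lung. NNK_LPS tumours had 32.7, 39.8 and 36.9 CPM, and NNK tumours 32.1, 36.6 and 41.3 CPM, within or near the Control range. Hbegf thus rose in LPS lung (0.99 ± 0.21, edgeR adjusted p = 0.000848), with values of 0.06 ± 0.21 in NNK_LPS tumours and 0.07 ± 0.21 in NNK tumours that did not pass (adjusted p = 0.861 and 0.859). It was lower in NNK_LPS tumours than in LPS lung, by -0.93 ± 0.21 (adjusted p = 0.00199). LPS 3, the only LPS library in the set of NNK_LPS, was the highest of the 3 at 78.4 CPM.

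Tgfa encodes transforming growth factor alpha, an EGFR ligand, and Btc encodes betacellulin, a ligand of EGFR and ERBB4. Tgfa had 36.2, 37.8 and 26.2 CPM in NNK_LPS tumours, 36.8, 37.0 and 26.4 CPM in NNK tumours and 22.4, 23.9 and 23.9 CPM in LPS lung, against 26.1, 21.0 and 21.1 CPM in Control lung. The lowest tumour library of each group stood just above the highest Control library. Tgfa rose by 0.55 ± 0.14 in NNK_LPS tumours and 0.56 ± 0.14 in NNK tumours (edgeR adjusted p = 0.00937 and 0.0185), and LPS lung gave 0.04 ± 0.14 (adjusted p = 0.826).

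Btc had 8.87, 13.1 and 6.89 CPM in NNK_LPS tumours, 8.22, 6.63 and 5.00 CPM in NNK tumours and 2.51, 3.48 and 4.04 CPM in LPS lung, against 4.85, 5.30 and 5.49 CPM in Control lung. It was the ligand whose LPS lung libraries all lay below Control while its NNK_LPS libraries all lay above. The log2 fold changes were 0.88 ± 0.22 in NNK_LPS tumours and -0.64 ± 0.23 in LPS lung (edgeR adjusted p = 0.00926 and 0.0304), and 0.34 ± 0.22 in NNK tumours did not pass (adjusted p = 0.319). Without NNK_LPS 2 the value in NNK_LPS tumours was 0.62 (adjusted p = 0.0597).

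Egfr, the receptor of all 5 ligands, did not pass in tumours of either kind. It had 100.2, 64.2 and 51.6 CPM in NNK_LPS tumours and 104, 113 and 53.9 CPM in NNK tumours, against 92.5, 91.4 and 63.8 CPM in Control lung. Both tumour groups spanned the Control range, and the log2 fold changes were -0.20 ± 0.35 in NNK_LPS and 0.13 ± 0.35 in NNK (edgeR adjusted p = 0.708 and 0.833). In LPS lung Egfr had 47.9, 40.1 and 44.8 CPM, below each Control library, and fell by 0.90 ± 0.35 (adjusted p = 0.0438). Over the 15 tumour libraries Egfr ran from 44.4 to 117 CPM, a 2.63-fold range with both ends in NNK_LPS_I3C.

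Erbb2 rose in both tumour groups by a small amount, and Erbb3 rose in NNK_LPS tumours. Erbb2 had 67.3, 69.1 and 56.6 CPM in NNK_LPS tumours, 65.7, 64.0 and 65.5 CPM in NNK tumours and 47.7, 50.7 and 50.3 CPM in LPS lung, against 52.8, 47.9 and 53.1 CPM in Control lung. No tumour library overlapped Control, and Erbb2 rose by 0.33 ± 0.08 in NNK_LPS and 0.35 ± 0.08 in NNK (edgeR adjusted p = 0.00761 and 0.0130). Its 15 tumour libraries covered the narrowest range of the 8 genes, 1.30-fold from lowest to highest. Erbb3 had 168, 208 and 118 CPM in NNK_LPS tumours, 139.6, 145 and 137 CPM in NNK tumours and 90.3, 107 and 96.6 CPM in LPS lung, against 110.4, 98.2 and 102 CPM in Control lung. The tumour libraries again lay above every Control library. Erbb3 rose by 0.67 ± 0.15 in NNK_LPS tumours (adjusted p = 0.00450), while 0.44 ± 0.15 in NNK tumours did not pass (adjusted p = 0.0587). In LPS lung the values were -0.05 ± 0.08 for Erbb2 and -0.08 ± 0.15 for Erbb3 (adjusted p = 0.643 and 0.668).

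**Figure D2:**
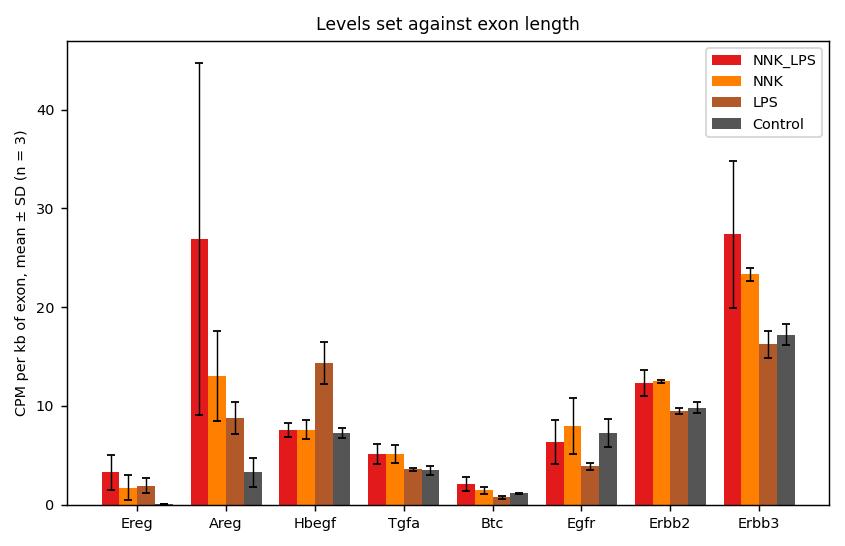
Mean level in CPM per kb of exon (y axis, from 0) of each gene (x axis) in NNK_LPS, NNK, LPS and Control; bars are means and error lines the SD of 3 libraries. Areg averages 26.9 CPM per kb in NNK_LPS (16.7 without NNK_LPS 2), against 3.30 in Control, and Erbb3 27.4 CPM per kb in NNK_LPS, against 17.2 in Control.

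Set against exon length, levels can be compared between genes. In NNK_LPS tumours Erbb3 averaged 27.4 ± 7.5 and Areg 26.9 ± 17.8 CPM per kb, followed by Erbb2 at 12.3 ± 1.3 (SD, n = 3). Areg stood at 18.9, 47.3 and 14.5 CPM per kb in the 3 libraries, and without NNK_LPS 2 it averaged 16.7, against 23.8 for Erbb3. In Control lung the same 3 genes averaged 17.2 ± 1.0, 3.30 ± 1.47 and 9.84 ± 0.56 CPM per kb. Hbegf was the highest ligand in LPS lung (14.4 ± 2.1 CPM per kb) and in Control lung (7.25 ± 0.52). Areg was the highest ligand per kb in each of the 3 NNK_LPS tumour libraries. Ereg, in spite of its fold change, stayed at 3.27 ± 1.80 CPM per kb in NNK_LPS tumours, against 0.0721 ± 0.0171 in Control lung.

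In NNK tumours 4 of the 8 genes (Ereg, Areg, Tgfa and Erbb2) rose against Control lung and none fell, while 6.46% of all genes tested were called higher and 6.63% lower. The median log2 fold change was 0.39 for the 8 genes and -0.02 for all genes, and 5 of the 8 genes, Erbb3 included, lay higher in every NNK library than in any Control library, against 17.3% of all genes. Both groups lie in set A. Tgfa did not pass without Control 2 (0.53, adjusted p = 0.0821), NNK 1 (0.49, adjusted p = 0.0796) or NNK 2 (0.50, adjusted p = 0.0541), Areg not without Control 2 (2.06, adjusted p = 0.0677) or NNK 1 (1.77, adjusted p = 0.0702), and Erbb2 not without Control 2 (0.32, adjusted p = 0.0658). Erbb3 passed in edgeR with only these groups (0.46, adjusted p = 0.00957) and in DESeq2 (0.46, adjusted p = 0.0267).

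In NNK_LPS tumours 6 of the 8 genes (Ereg, Areg, Tgfa, Btc, Erbb2 and Erbb3) rose against Control and none fell, against 12.0% of all genes called higher and 12.6% lower. The same 6 genes lay above Control in every library, as did 18.9% of all genes. The median log2 fold change was 0.61 for the 8 genes and -0.02 for all genes. These groups share no library set, and with a term for the set none of the 8 was called, with Ereg at 4.56 (edgeR adjusted p = 0.110) and Areg at 2.74 (adjusted p = 0.130). The set term gave 0.51 for Tgfa, 0.45 for Btc, 0.29 for Erbb2 and 0.69 for Erbb3 (adjusted p = 0.375, 0.635, 0.365 and 0.243), with larger SEs (1.28 for Ereg, against 0.82 without the term). At an unadjusted p under 0.05, 6 genes passed without that term, against 38.3% of all genes. The set term rests on LPS and NNK_LPS_I3C, the 2 groups that span sets.

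**Figure D3:**
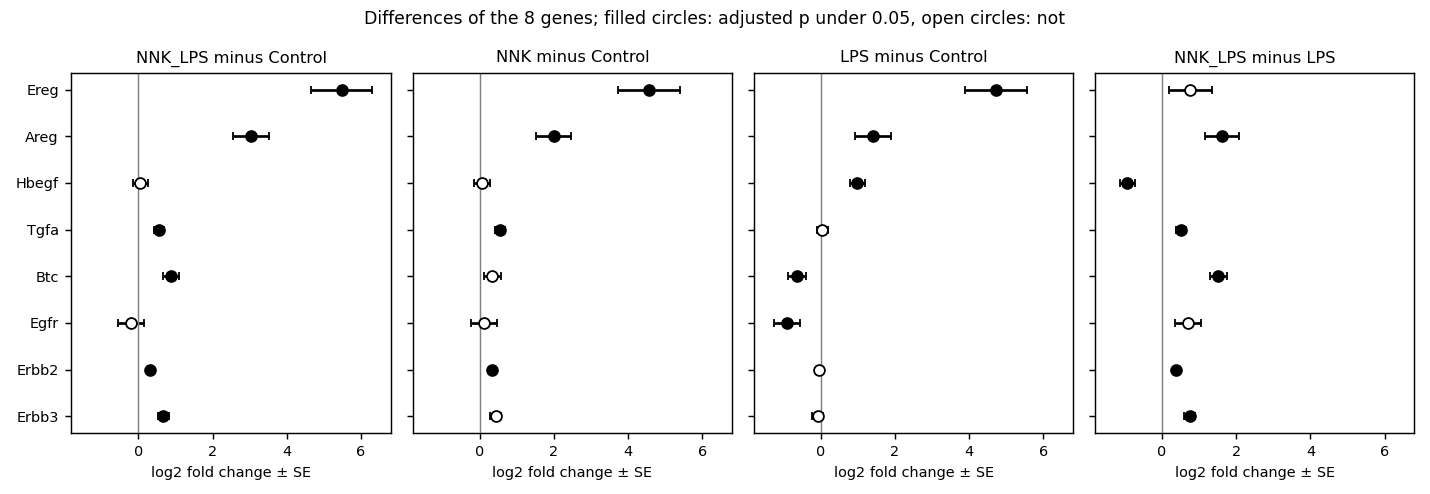
Log2 fold change with its SE (x axes) of the 8 genes (y axis) in 4 comparisons; filled circles had an edgeR adjusted p under 0.05. Ereg lies far right in the first 3 panels and Areg right of 0, and Hbegf is right of 0 for LPS and left of 0 for NNK_LPS minus LPS.

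In LPS lung 5 of the 8 genes passed against Control: Ereg, Areg and Hbegf rose, and Btc and Egfr fell. Of all genes 50.0% passed, so the members' share was near that of all genes, with 25.3% called higher and 24.7% lower. The groups did not overlap for these 5 genes, against 30.4% of all genes in the higher and 30.9% in the lower direction. With only LPS 1 and LPS 2, which share the set of Control, Areg was at 1.32 (edgeR adjusted p = 0.0633) and Egfr at -0.90 (adjusted p = 0.0952). With a term for the library set, Areg was at 1.31 (adjusted p = 0.0506) and Egfr at -0.91 (adjusted p = 0.0870), and without the filter on low counts Egfr was at -0.89 (adjusted p = 0.0721). Leaving out 1 library ended 3 of these calls in several cases. Areg was at 1.47 without Control 2 (adjusted p = 0.0531), 1.11 without Control 3 (adjusted p = 0.0959) and 1.37 without LPS 2 (adjusted p = 0.0541). Btc was at -0.67, -0.62 and -0.59 without Control 1, 2 or 3 (adjusted p = 0.0511, 0.0752 and 0.0787), and at -0.46 and -0.66 without LPS 1 or 2 (adjusted p = 0.143 and 0.0617). Egfr was at -0.80 and -0.81 without Control 1 or 2 (adjusted p = 0.114 and 0.110), and at -0.95 and -0.83 without LPS 1 or 2 (adjusted p = 0.0741 and 0.113). Ereg and Hbegf passed without each library in turn.

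Tumours were also set against LPS lung, which is inflamed but holds no NNK tumours. In NNK_LPS tumours 5 genes (Areg, Btc, Tgfa, Erbb2 and Erbb3) were higher and Hbegf was lower than in LPS lung, where 17.3% of all genes were called higher and 20.9% lower. In NNK tumours Btc, Tgfa, Egfr, Erbb2 and Erbb3 were higher and Hbegf lower, against 21.9% and 25.1% of all genes. With the set term Areg (1.43, adjusted p = 0.121) and Tgfa (0.48, adjusted p = 0.114) did not pass in NNK_LPS minus LPS. Btc was higher in NNK_LPS tumours by 1.52 ± 0.23 (edgeR adjusted p = 6.77e-05). Erbb3 was higher by 0.75 ± 0.15 in NNK_LPS and by 0.52 ± 0.15 in NNK tumours (adjusted p = 0.000740 and 0.00818). Egfr, at 1.03 ± 0.35 in NNK tumours (adjusted p = 0.0249), did not pass without NNK 1, NNK 2, LPS 2 or LPS 3 (0.92, 0.85, 0.98 and 1.04, with edgeR adjusted p of 0.0738, 0.0944, 0.0678 and 0.0598), nor with the set term (1.04, adjusted p = 0.0574). The comparisons with Control and with LPS share libraries.

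Among tumours, none of the 8 genes passed between NNK_LPS and NNK by edgeR or by DESeq2, where edgeR called 0.0951% of all genes. At an unadjusted p under 0.05, 2 of the 8 passed, against 16.0% of all genes. They were Areg (1.04 ± 0.44, edgeR adjusted p = 0.258) and Btc (0.54 ± 0.22, adjusted p = 0.243). All 8 genes overlapped between NNK_LPS and NNK tumours. The difference of the LPS effect between tumours and lung passed for 3 genes, against 25.1% of all genes. It was -3.79 ± 1.04 for Ereg, -0.996 ± 0.29 for Hbegf and 1.17 ± 0.32 for Btc (adjusted p = 0.0136, 0.0197 and 0.0125). For Areg it was -0.37 ± 0.65 (adjusted p = 0.717). Hbegf missed the threshold without Control 1, NNK 3 or LPS 3 (-0.95, -0.90 and -0.90, with adjusted p of 0.0502, 0.0505 and 0.0515). With a term for the library set Btc was at 0.90 (adjusted p = 0.138). Erbb3, at 0.31 ± 0.21 (adjusted p = 0.294), passed without NNK_LPS 3 (0.51, adjusted p = 0.0325).

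**Figure D4:**
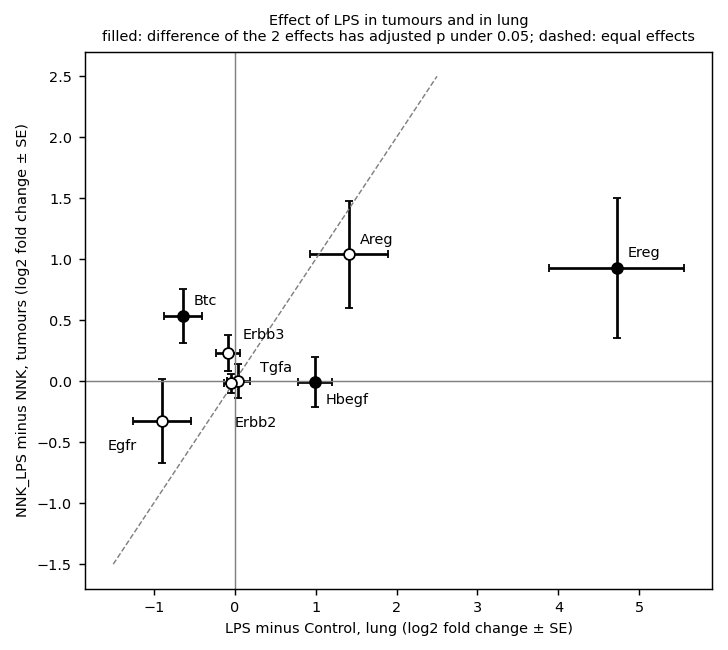
Log2 fold change of LPS against Control in lung (x axis) and of NNK_LPS against NNK in tumours (y axis), with SE, for the 8 genes; the dashed line marks equal effects, and filled points had an adjusted p under 0.05 for the difference. Ereg and Hbegf lie below the line and Btc above it.

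The diet groups were compared with NNK_LPS tumours to ask whether the agents altered the family. With I3C, Areg had 16.8, 6.00 and 9.43 CPM, against 22.9, 57.5 and 17.6 CPM in NNK_LPS, and Hbegf had 18.4, 23.8 and 24.2 CPM, against 32.7, 39.8 and 36.9 CPM. Neither gene overlapped between the groups, as held for 9.68% of all genes in the lower direction. Their log2 fold changes of -1.62 ± 0.44 and -0.72 ± 0.21 missed the threshold in edgeR (adjusted p = 0.0648 and 0.0727) and passed in DESeq2 (-1.63 and -0.73, adjusted p = 0.00775 and 0.0195). No member was called by edgeR with I3C, against 2.02% of all genes, and 3 had an unadjusted p under 0.05, against 20.6% of all genes. I3C 1, the only I3C library in the set of NNK_LPS, had 16.8 CPM of Areg and 18.4 CPM of Hbegf, both below every NNK_LPS library. Its Areg was just below NNK_LPS 3 at 17.6 CPM, and its Ereg (6.83 CPM) lay above NNK_LPS 3 (5.29 CPM). The lower Areg values, 6.00 and 9.43 CPM, were in set C.

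With both agents (NNK_LPS_Sil_I3C) all 8 log2 fold changes were negative in the model without a set term. None passed in edgeR or DESeq2, against 1.36% of all genes called by edgeR. All NNK_LPS_Sil_I3C libraries lay in set C and all NNK_LPS libraries in set B. Diet and library set therefore cannot be told apart between these 2 groups. With the set term Egfr was at 0.33 (edgeR adjusted p = 0.925). At an unadjusted p under 0.05, 5 of the 8 passed, against 16.5% of all genes. Areg had 14.1, 13.9 and 12.5 CPM with both agents (-1.28 ± 0.44, edgeR adjusted p = 0.157), and Btc 5.84, 6.71 and 6.40 CPM (-0.60 ± 0.22, adjusted p = 0.173). Areg, Btc and Hbegf lay below every NNK_LPS library, as did 9.82% of all genes. Without NNK_LPS 3, which had the lowest value of its group for every gene but Hbegf, 4 genes passed: Areg (-1.61), Tgfa (-0.50), Btc (-0.82) and Erbb3 (-0.57), with edgeR adjusted p of 0.0491, 0.0363, 0.0374 and 0.0114. In the I3C comparison, leaving out that library called Areg (-1.96, adjusted p = 0.0306) and Erbb3 (-0.45, adjusted p = 0.0469), and leaving out NNK_LPS 1 called Areg (-1.86, adjusted p = 0.0372). Dropping the lowest reference library enlarges such falls, so the calls without NNK_LPS 3 are no added support. Other single omissions shrank the falls with both agents to as little as -0.60 for Areg, -0.24 for Tgfa, -0.33 for Btc and -0.17 for Erbb3. With I3C the smallest falls were -0.95 for Areg and -0.05 for Erbb3. Alveolar type 2 marker sums were 38077 to 39873 CPM with both agents and 39016 to 39815 CPM with I3C, against 52302 to 70948 CPM in NNK_LPS. Of these 10 markers 3 fell with both agents and 4 fell with I3C. Among all genes 1.36% were called with both agents and 2.02% with I3C, shares that also stand beside the marker counts below. Heart muscle markers summed to 105.7 to 257 CPM with both agents and 365 to 531 CPM with I3C, against 79.3 to 154 CPM in NNK_LPS, and 6 of 7 rose with I3C and none with both agents. Club cell markers summed to 26503 to 33762 CPM with both agents and 26244 to 35840.1 CPM with I3C, against 17007 to 25356 CPM in NNK_LPS, and 1 of 6 rose with both agents and 2 with I3C. Their part in the values of the 8 genes was not tested.

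Silibinin alone called none of the 8 genes and none of the 15770 tested, by edgeR or by DESeq2 (0% called). At an unadjusted p under 0.05 no member and 578 of all genes passed in edgeR. Areg had 24.4, 14.3 and 14.2 CPM with silibinin (-0.89 ± 0.44), overlapping NNK_LPS. Egfr had 112, 95.1 and 56.4 CPM (0.29 ± 0.35).

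Of 7 other genes of the family (Egf, Epgn, Erbb4 and Nrg1 to Nrg4), 5 passed the filter on low counts, and Epgn, the fourth ligand gene of the chromosome 5 cluster, had at most 7 counts over the 3 libraries of any group. Erbb4, which encodes a receptor of neuregulins and of several EGFR ligands, averaged 0.327 ± 0.224 CPM in LPS lung, against 1.20 ± 0.48 CPM in Control lung (SD, n = 3), and fell by 1.88 ± 0.62 (edgeR adjusted p = 0.0179). Nrg2, a neuregulin gene, averaged 2.31 ± 0.69 CPM in NNK_LPS tumours, against 4.59 ± 1.14 CPM in Control lung (-0.98 ± 0.28, edgeR adjusted p = 0.0166). No listed gene of this group passed in NNK tumours against Control.

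Of 7 listed genes of ligand release, 2 rose in LPS lung and none fell, a share near the 25.3% of all genes called higher, and the median log2 fold change of the 7 was -0.18. The 2 were Adam17, the main sheddase (0.83 ± 0.09), and Rhbdf2, the inactive rhomboid that carries ADAM17 to the cell surface (1.03 ± 0.12). Adam17 averaged 195 ± 11 CPM and Rhbdf2 111 ± 6 CPM in LPS lung, against 109.7 ± 4.5 and 54.2 ± 2.1 CPM in Control lung (SD, n = 3). Neither passed in NNK or NNK_LPS tumours, and the LPS effect differed between tumours and lung by -0.85 ± 0.13 for Adam17 and -1.02 ± 0.16 for Rhbdf2 (edgeR adjusted p = 0.000131 and 0.000237).

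Of 20 adaptor and RAS pathway genes, 3 rose in NNK tumours, 5 rose and 1 fell in NNK_LPS tumours, and 4 rose and 8 fell in LPS lung, each against Control. Of all genes, 6.46% were called higher and 6.63% lower in NNK tumours, 12.0% and 12.6% in NNK_LPS tumours, and 25.3% and 24.7% in LPS lung, and the counts of this list and of the next 2 are to be read against these shares. Grb7, an adaptor that binds HER2, rose by 0.52 ± 0.11 in NNK_LPS tumours, and Pik3r1, a regulatory subunit of PI3 kinase, fell by 0.36 ± 0.06 in LPS lung. Grb2, which links the receptors to RAS activation, rose by 0.71 ± 0.07 in LPS lung and 0.30 ± 0.07 in NNK tumours. Among 17 inhibitors of the receptors and of RAS signalling, 6 rose and none fell in NNK tumours, with Spred2 at 0.65 ± 0.11 and Spry2 at 0.64 ± 0.16. In NNK_LPS tumours 2 rose and 2 fell, and in LPS lung 5 rose and 4 fell, with the phosphatase gene Ptpn1 at 1.02 ± 0.17. Of 12 genes induced by ERK, 5 rose in NNK tumours, 7 in NNK_LPS tumours and 7 in LPS lung, and none fell in the 3 comparisons. Etv4, an ETS factor, rose most in both tumour groups, by 3.75 ± 0.42 and 3.77 ± 0.42, and Egr1, an immediate early gene, by 2.42 ± 0.36 in LPS lung.

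Marker levels of other cell types also differed between these groups. Counts of markers called against Control, here and in the next paragraph, are to be read against the shares of all genes. Those were 6.46% called higher and 6.63% lower in NNK tumours, 12.0% and 12.6% in NNK_LPS tumours, and 25.3% and 24.7% in LPS lung. Macrophage and monocyte markers summed to 10823 to 15436 CPM in NNK_LPS, 7971 to 10594 CPM in NNK and 9538 to 13848 CPM in LPS, against 6421 to 7988 CPM in Control, and 3, 2 and 6 of the 8 rose, with 1 lower in NNK_LPS and 1 lower in LPS. None of these 8 was at 0 in any library. Set against LPS lung, 1 of the 8 was higher and 5 were lower in NNK_LPS tumours (median log2 fold change -0.71). In NNK tumours 1 was likewise higher and 5 were lower than in LPS lung (median -0.65). Of all genes, 17.3% were called higher and 20.9% lower in NNK_LPS minus LPS, and 21.9% and 25.1% in NNK minus LPS. NNK 2, with the lowest Ereg of all tumour libraries, had the lowest macrophage sum of its group at 7971 CPM. NNK_LPS 2, with the highest Ereg, had the highest sum of its group at 15436 CPM. These 2 libraries were picked by their Ereg values. Against LPS lung, Ereg did not pass in NNK_LPS tumours (0.76 ± 0.57, edgeR adjusted p = 0.311). Nor did it pass in NNK tumours (-0.17 ± 0.58, edgeR adjusted p = 0.837). Alveolar type 2 markers summed to 52302 to 70948 CPM in NNK_LPS, 46474 to 55537 CPM in NNK and 20736 to 24669 CPM in LPS, against 32272 to 38380.4 CPM in Control, with 9 and 7 of 10 higher in the tumours and 5 lower in LPS lung. Heart muscle markers summed to 79.3 to 154, 112 to 251 and 89.6 to 130.2 CPM, against 510.5 to 545 CPM. The part of these cell types in the levels of the 8 genes was not tested.

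Neutrophil markers summed to 811 to 1033 CPM in LPS lung, against 32.2 to 96.1 CPM in Control, where Ly6g had no counts in any of the 3 libraries. General epithelial markers summed to 2156 to 2297 CPM in LPS lung, against 1923 to 2069 CPM in Control, with 5 of 10 higher and 1 lower. NNK tumours had 75.9 to 542 CPM of neutrophil markers and 32.1 to 41.3 CPM of Hbegf. Endothelial markers (all 8 lower in LPS lung) summed to 1599 to 1806 CPM there, against 3708 to 3947 CPM in Control, beside the lower Egfr and Btc. In NNK_LPS tumours 6 of these 8 were also lower than in Control and 0 higher, while Btc was higher there and Egfr did not pass. In NNK tumours 1 was lower and 0 higher. Of 8 alveolar type 1 markers, 7 were lower and 1 higher in LPS lung. Of those 8, 1 was lower in NNK_LPS and 2 in NNK, and 0 were higher. T-cell and innate lymphoid cell markers summed to 40.2 to 65.4 CPM in NNK_LPS, 31.4 to 52.2 CPM in NNK and 91.7 to 106 CPM in LPS, against 21.8 to 37.9 CPM in Control. Of these 8, 4 rose and 1 fell in NNK_LPS, none passed in NNK, and 6 rose in LPS. Club cell markers summed to 17007 to 25356 CPM in NNK_LPS, 18121 to 26115 CPM in NNK and 13805 to 17812 CPM in LPS, against 36778 to 40156 CPM in Control, and all 6 fell in each of the 3 groups. Their part in the levels of the 8 genes was not tested.

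**Figure D5:**
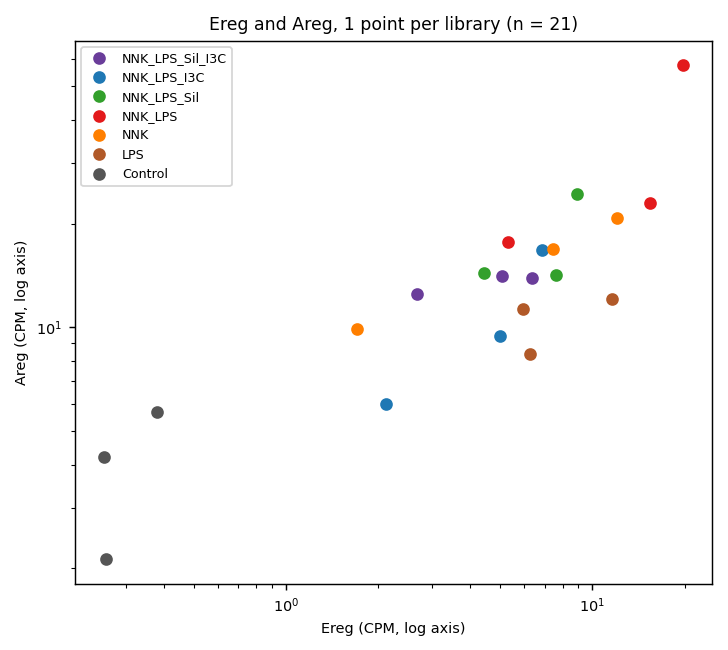
Ereg (x axis) and Areg (y axis) in CPM on log axes, 1 point per library for 21 libraries, coloured by group. The 3 Control libraries lie at the lower left, and NNK_LPS 2 at the upper right with 19.8 CPM of Ereg and 57.5 CPM of Areg.

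Ereg and Areg, neighbours in the cluster, were high in the same tumour libraries. Over the 15 tumour libraries the log2 CPM values had a Pearson r of 0.855 and a Spearman rho of 0.861, and r was 0.832 without the 2 libraries farthest from the median of Ereg. Within set A (8 libraries) r was 0.898 and within set B (8 libraries) 0.668. With group means removed, r over 21 libraries was 0.737. These are descriptions of the highest of 28 pairs over the tumour libraries, chosen after their values were seen, over libraries that share groups and scaling. Within the sets, which mix lung and tumour groups, other pairs were higher, such as Erbb2 and Erbb3 (0.971 in set A and 0.907 in set B). Btc, the third member of the cluster, had r of 0.610 with Ereg and 0.646 with Areg over the same 15 libraries. Without the 2 libraries farthest from the median of Ereg or of Areg, these were 0.454 and 0.409. In set A they were -0.137 and 0.123, and in set B 0.500 and 0.892. Erbb3, which lies outside the cluster, had r of 0.668 with Btc, 0.666 with Areg and 0.504 with Ereg over the 15 libraries.

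The genes with the most similar patterns over 21 libraries were named among 13473 candidates, by Pearson r of log2 CPM and with no test. They included Tmc4 (0.940) and Vrk3 (0.935) for Ereg, and were Gdnf (0.922), Tnfsf9 (0.907) and Kcnj2 (0.904) for Areg. For Hbegf they were Anxa3 (0.922), Tstd3 (0.918) and Rab1 (0.917). Tgfa was most like Ick (0.963), Atp1b1 (0.917) and Man1c1 (0.911), and Btc like Srek1 (0.892), Eif2ak4 (0.880) and Zadh2 (0.880). Egfr was most like Bcar3 (0.945), Rnf103 (0.932) and Zhx3 (0.928). Erbb2 was most like C77080 (0.927), Shroom1 (0.924) and Abca3 (0.923), the last a lipid transporter of alveolar type 2 cells, and Erbb3 like Ralgapa2 (0.949), Atp1b1 (0.945) and Hkdc1 (0.933). Atp1b1, a sodium pump subunit gene, was thus named for both Tgfa and Erbb3.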

How the data were processed

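RNA-seq of 21 libraries was analysed from 1 table of raw counts per gene symbol, which the authors deposited. Per the labels' protocols, libraries were made with the TruSeq RNA kit, and mm10 is the genome build listed in the submitters' processing notes. Which aligner, counter, annotation or strand option was used is not stated in these sources. On the opposite strand, Ereg shares 141 exonic bases with the antisense transcript Gm19610, Tgfa 118 with Gm43917 and Erbb2 9 with Mien1. Reads there may not have been told apart by strand. Of 38924 symbols, 16756 had no counts. Depth was 13.3 to 25.3 M counts per library, and no 2 libraries were identical.

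In R 4.3.3 with edgeR 4.0.16, TMM factors set the library sizes, and filterByExpr at a minimum count of 10 kept 15770 genes. A robust quasi-likelihood model was fitted to all 7 groups (14 residual degrees of freedom), and p-values of 10 contrasts were adjusted (Benjamini-Hochberg) across every tested gene. Calls are those with adjusted p below 0.05. CPM are counts relative to the TMM-scaled library size. Values per kb use the merged exon length of GENCODE M21 (GRCm38), which may differ from the authors' annotation. The members and gene lists were chosen with earlier results of these data known. Genes named from the lists were taken from those with the smallest adjusted p, up to 4 called genes per list and contrast. One gene that the rule on similar patterns names is not reported here. One marker symbol (Adgre1) was matched through an older name. The script was tested on simulated data. The alternatives tried were relative log expression scaling, omitting the filter, DESeq2 1.42.0, the compared groups alone, a replicate block, a term for the library set and leaving out each library.

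Replicate numbers here follow the sample order within each group, and the titles of the NNK groups carry other numbers. They were checked for pairing by the correlation over genes of same-numbered deviations from the group means. All 3 were over 0.1 only for NNK_LPS_I3C and NNK_LPS (0.158 to 0.276), where the block called none of the 8 genes either. The labels do not say that a number marks a shared mouse or day.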

Additional observations from a re-analysis of the deposited data

Results flagged for a closer look

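In 3 genes the effect of LPS differed between tumours (NNK_LPS minus NNK) and lung (LPS minus Control) by the interaction term of the edgeR model, against 25.1% of all genes. The difference, tumours minus lung, was -3.79 ± 1.04 for Ereg (adjusted p = 0.0136), -0.996 ± 0.29 for Hbegf (adjusted p = 0.0197) and 1.17 ± 0.32 for Btc (adjusted p = 0.0125), on the log2 scale with 3 libraries per group. For Ereg the 2 effects were 0.93 ± 0.58 in tumours and 4.72 ± 0.83 in lung, where Control held 13 counts over 3 libraries. For Hbegf they were -0.01 ± 0.21 and 0.99 ± 0.21, and for Btc 0.54 ± 0.22 and -0.64 ± 0.23. With a term for the library set Btc did not pass (0.90, adjusted p = 0.138), and Hbegf did not pass without Control 1 (-0.95, adjusted p = 0.0502), NNK 3 (-0.90, adjusted p = 0.0505) or LPS 3 (-0.90, adjusted p = 0.0515). Groups of 3 libraries were not searched for single outlying values.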

How the results depend on the processing

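Members were called 3 times in LPS lung against Control with the library set term and 3 times with only the LPS libraries of the Control set, in place of 5, and none (0) was called in NNK_LPS tumours against Control with the set term, in place of 6. DESeq2 called 2 with I3C, in place of 0. Leaving out 1 library gave 1 to 4 calls for NNK minus Control, 2 to 3 for LPS minus Control, 0 to 2 for I3C and 0 to 4 for both agents. Over all genes DESeq2 called 474 in place of 15 for NNK_LPS minus NNK, 1042 in place of 318 with I3C and 658 in place of 214 with both agents. With the compared groups alone Egfr passed in NNK_LPS minus LPS (0.73, adjusted p = 0.0480). The replicate block added Erbb3 in NNK minus Control (0.44, adjusted p = 0.0455) and changed no other call of the 8 genes. By this running number, 5 of 6 samples in NNK minus Control matched best with their own number, with correlations of 0.033 to 0.29. In NNK_LPS_I3C minus NNK_LPS 6 of 6 did. The labels give no pairing, and the titles of the NNK groups carry other numbers. What these matches reflect was not tested.

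Reversed signs occurred for values that were never called. With size factors by relative log expression they were Tgfa in NNK_LPS minus NNK (0.0016) and Erbb2 with Sil (-0.0045). With the block they were Hbegf in NNK_LPS minus NNK (0.0015) and Erbb2 with Sil (-0.00066), with the compared groups alone Erbb2 with Sil (-0.0025), and with DESeq2 Tgfa in NNK_LPS minus NNK (0.0013) and Erbb2 with Sil (-0.0036). With the set term they were Hbegf in NNK_LPS minus Control (-0.21), Ereg in NNK minus LPS (0.21) and Egfr with both agents (0.33). Leaving out 1 library, ranges that crossed 0 were -0.015 to 0.17 for Hbegf and -0.044 to 0.41 for Egfr in NNK minus Control, -0.00082 to 0.17 for Tgfa in LPS minus Control, -0.47 to 0.032 for Egfr in NNK_LPS minus Control and -0.78 to 0.31 for Ereg in NNK minus LPS. In NNK_LPS minus NNK they were -0.085 to 0.097 for Hbegf, -0.14 to 0.16 for Tgfa and -0.067 to 0.083 for Erbb2. With Sil they were -0.62 to 0.027 for Hbegf, -0.20 to 0.056 for Tgfa, -0.10 to 0.051 for Erbb2 and -0.24 to 0.17 for Erbb3, and for the difference of LPS effects -0.19 to 0.11 for Tgfa and -0.031 to 0.12 for Erbb2. The cause was not tested. No scaling moved the median of all genes by more than 0.1 on the log2 scale. Ereg in Control rests on 13 counts in all, which limits the precision of its fold changes.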

Other observations

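Hbegf and Egfr ran opposite to each other within the library sets. The Pearson r of their log2 CPM was -0.835 in set A (8 libraries) and -0.875 in set B (8 libraries). It was -0.584 over 21 libraries with group means removed. The set values include differences between groups. Set A holds LPS 1 and LPS 2, and set B LPS 3, with Hbegf at 58.3 to 78.4 CPM and Egfr at 40.1 to 47.9 CPM. Over the 15 tumour libraries it was -0.451, with a Spearman rho of -0.407, and -0.263 without the 2 libraries farthest from the median of Hbegf. NNK_LPS_Sil 3 had the highest Hbegf of the tumour libraries (48.0 CPM) and the lowest Egfr of its group (56.4 CPM). This pair was chosen among 28 after its values were seen, and the values are a description with no test.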
